A study of Rattus norvegicus with 9 samples.

Results

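Oligodendrocyte precursor genes were taken as Pdgfra, Cspg4, Olig1, Olig2, Sox10 and Gpr17, and the rows with these 6 symbols were read from a table of 37209 genes. All 6 were detected in every rat and all 6 were among the 16837 genes that had enough counts to be tested. Total RNA depleted of rRNA came from the frontal cortex (the prefrontal cortex, PFC) of 9 male Wistar rats aged 14 weeks, 3 in each of 3 groups. In the Control group (rats A1, A2 and A6) mothers and litters were left undisturbed until weaning. Rats of the maternal separation group (MS, rats B3, B4 and B6) were kept from their mothers for 4 h a day from postnatal day (PND) 1 to PND 21. Rats of the MS+EA group (C3, C10 and C16) had the same separation and later received electroacupuncture (EA), in which a current is passed between needles, at the acupoints GV20 and GV29 every other day from PND 61 to PND 81. EA was given under anaesthesia, and the Control and MS rats received the anaesthesia alone. No sham-EA group and no group with EA but without separation was analysed here, so the needling and the current cannot be told apart, and the litters of the 9 rats are not given in the sources used here. The 9 rats are different animals.

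Oligodendrocyte precursors, also called NG2 glia, stay in the adult cortex as the dividing cells from which new oligodendrocytes form. They carry the PDGF receptor alpha, encoded by Pdgfra, through which PDGF-A drives their division, and the NG2 proteoglycan, encoded by Cspg4. The basic helix-loop-helix factors Olig1 and Olig2 and the HMG-box factor Sox10 are made through the whole lineage, and Sox10 also acts on myelin genes in mature oligodendrocytes. Gpr17, a G protein-coupled receptor, appears in precursors that are committed to mature and is lost before myelination. Pdgfra is also made by fibroblast-like cells of the meninges and vessels, and Cspg4 also by pericytes.

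The files held between 12479905 and 19007907 counts per rat, with all 3 MS+EA totals (at most 14913736) below all Control and MS totals (at least 16106381). The members had between 206 counts (Olig2 in C10) and 2039 counts (Pdgfra in B4). Values are given as CPM, the counts relative to the size of the library after TMM scaling, and because the lengths of the counted transcripts were not available no level of one gene is compared with the level of another. Counting error alone gave a coefficient of variation of 2.46% to 6.68% for a member within a group, and the coefficients of variation found between the 3 rats of a group were 1.83% to 29.7%. Cortical neuron markers were abundant in every rat, with a summed level of 5126 to 6701 CPM over 8 genes. Rat B4 stood apart in 2 lists of markers, since 7 fibroblast genes summed to 478 CPM in it against 44.1 to 257 CPM in the other rats, and 6 hypothalamic neuron genes, Oxt and Avp among them, summed to 48.5 CPM against 1.35 to 6.90 CPM elsewhere. B4 was also highest in 12 pericyte and mural cell genes, at 351 CPM against 170 to 240 CPM elsewhere, and in 6 endothelial genes, at 237 CPM against 147 to 206 CPM elsewhere. Every MS rat was also above every Control rat in the mural sum (217 to 351 against 170 to 190 CPM) and in the endothelial sum (195 to 237 against 147 to 165 CPM). Of the single genes, 6 of the 12 mural and 3 of the 6 endothelial ones did not overlap, all higher in MS. Over all tested genes 17.6% did not overlap between these groups. The fibroblast sum was 44.1 to 54.3 CPM in Control, 63.3 to 478 CPM in MS and 64.1 to 257 CPM in MS+EA rats. B3 (63.3 CPM) and C10 (64.1 CPM) were only just above Control, while B4 (478 CPM) and C16 (257 CPM) were far above. The part of these cells in the members' values was not tested. Member values that move by over 1.5 times without B4 are given both ways.

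None of the 6 oligodendrocyte precursor genes passed the thresholds for differential expression in any of the 3 comparisons, which were an adjusted p under 0.05 together with more than a 1.5-fold change. Gpr17 was the member with the lowest p in both comparisons with Control. It was lower in each of the 3 MS rats than in each of the 3 Control rats, by 1.22-fold. The other members overlapped between MS and Control rats, with Pdgfra at a higher mean in MS, Olig1, Olig2 and Sox10 at lower means and Cspg4 at nearly the same one. Over all tested genes edgeR called 4 between MS and Control (0.0238%), 3 between MS+EA and MS (0.0178%) and 230 between MS+EA and Control (1.37%). At an unadjusted p under 0.05 in the edgeR quasi-likelihood test, 1, 0 and 1 of the 6 members passed in these comparisons, where the shares over all tested genes were 10.6%, 12.4% and 22.5%. The pairs of groups share rats, so the 3 comparisons are not independent of each other. Since the tissue is a mixture, fewer cells of a type and less RNA per cell cannot be told apart in any of these values.

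**Figure D1:**
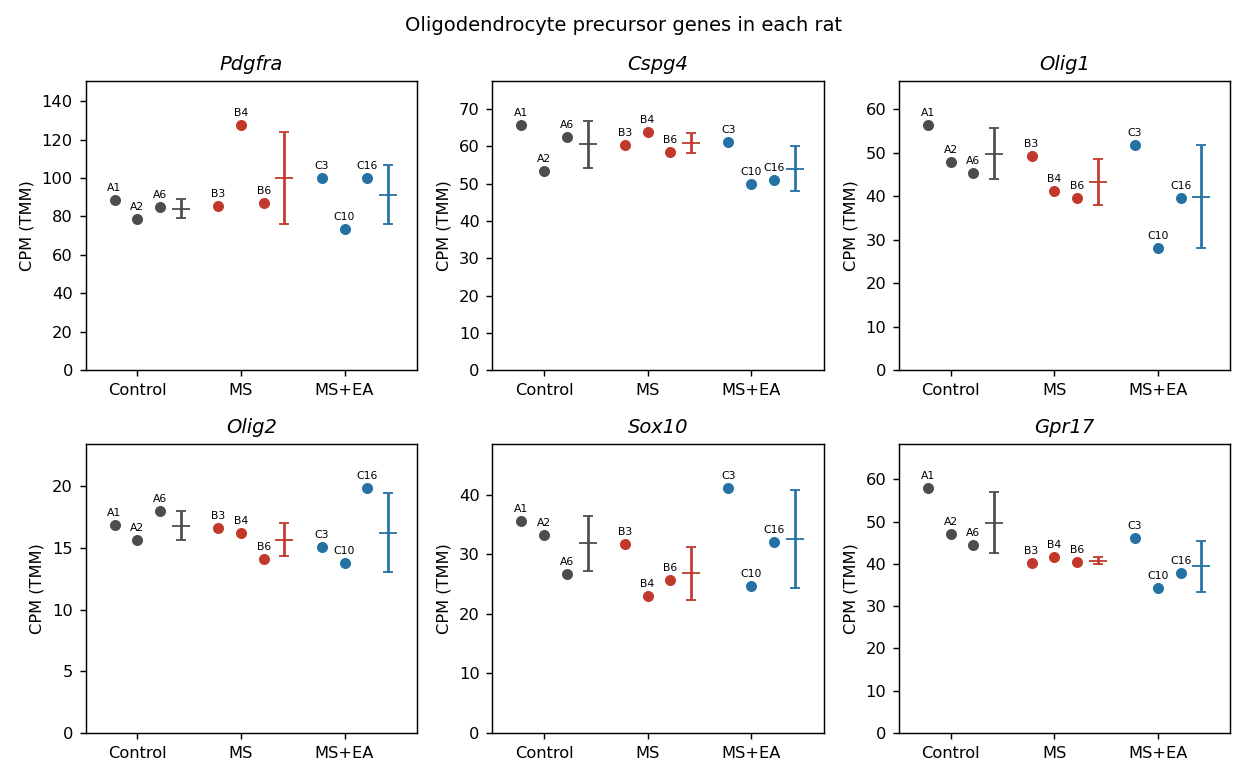
CPM of the 6 oligodendrocyte precursor genes (y axis of each panel, from 0) in the 9 rats by group, with 1 point per rat labelled by its name and the mean ± SD (n = 3) beside each group. The 3 MS values of Gpr17 lie between 40.2 and 41.7 CPM, below all Control values, and Pdgfra is highest in the MS rat B4 at 128 CPM.

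Pdgfra was measured at 88.7, 78.6 and 84.9 CPM in Control (A1, A2, A6), at 85.3, 128 and 86.9 CPM in MS (B3, B4, B6), and at 100.1, 73.5 and 100.2 CPM in MS+EA (C3, C10, C16), and the rats keep this order below. A single MS rat, B4, was far above the rest, and the groups overlapped in all 3 comparisons. The log2 fold change of MS against Control was 0.25 (95% interval -0.08 to 0.57; adjusted p = 0.584, edgeR). Without B4 it was 0.03, so nearly all of this difference came from the rat that was also highest in fibroblast genes. The log2 fold change was -0.13 in MS+EA against MS (adjusted p = 0.758, edgeR) and turned to 0.09 without B4, and in MS+EA against Control it was 0.12 (adjusted p = 0.696, edgeR), with 0.045 without C16 and 0.25 without C10.

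Cspg4 was the most even member between Control and MS rats. Its levels were 65.7, 53.5 and 62.5 CPM in Control, 60.4, 63.9 and 58.4 CPM in MS and 61.1, 49.99 and 51.0 CPM in MS+EA rats. C10 and C16 were below every other rat, while C3 was within the range of the MS rats. The log2 fold change was 0.01 in MS against Control (95% interval -0.20 to 0.22; adjusted p = 0.988, edgeR), -0.17 in MS+EA against MS (95% interval -0.39 to 0.04; adjusted p = 0.496, edgeR) and -0.16 in MS+EA against Control (adjusted p = 0.350, edgeR). The first was -0.029 without B4, and without C3 the others were -0.26 and -0.26.

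Olig1 was at 56.4, 47.8 and 45.3 CPM in Control, 49.3, 41.2 and 39.6 CPM in MS and 51.8, 28.1 and 39.7 CPM in MS+EA rats. C10 was the lowest of the 9 rats, and C3 was above all MS rats and the Control rats A2 and A6. Olig1 in MS+EA rats had the largest coefficient of variation of any member in a group, at 29.7%. Its log2 fold change was -0.20 in MS against Control (adjusted p = 0.723, edgeR), with -0.10 without A1 and -0.31 without B3. Between MS+EA and MS rats it was -0.12 (adjusted p = 0.816, edgeR). In MS+EA against Control it was -0.32 (95% interval -0.70 to 0.06; adjusted p = 0.302, edgeR). It was -0.12 without C10 and -0.55 without C3.

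Olig2, the neighbour of Olig1 on the same chromosome, was at 16.9, 15.6 and 18.0 CPM in Control, 16.6, 16.2 and 14.1 CPM in MS and 15.1, 13.8 and 19.9 CPM in MS+EA rats. Both the lowest and the highest value were in MS+EA rats. The log2 fold changes were -0.10, 0.05 and -0.05 in MS against Control, MS+EA against MS and MS+EA against Control, with adjusted p of 0.841, 0.916 and 0.869 by edgeR. The first ranged from -0.16 (without A2) to -0.035 (without B6) and the second was 0.082 without B4.

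Sox10 was at 35.6, 33.3 and 26.6 CPM in Control, 31.7, 23.0 and 25.7 CPM in MS and 41.1, 24.7 and 32.0 CPM in MS+EA rats. The highest rat, C3, and the second lowest, C10, were both in the MS+EA group. Its log2 fold change was -0.25 in MS against Control (95% interval -0.63 to 0.13; adjusted p = 0.652, edgeR) and 0.28 in MS+EA against MS (95% interval -0.10 to 0.67; adjusted p = 0.539, edgeR). The first value was -0.15 without B4 and -0.39 without B3, and the second was 0.085 without C3 and 0.45 without C10. MS+EA and Control rats differed in Sox10 by a log2 fold change of 0.03 (adjusted p = 0.935, edgeR).

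Gpr17 was at 58.0, 47.0 and 44.4 CPM in Control, 40.2, 41.7 and 40.5 CPM in MS and 46.1, 34.4 and 37.9 CPM in MS+EA rats. All MS rats were below all Control rats, and in the MS+EA group C10 and C16 were below all MS rats while C3 was above them and above the lowest Control rat. The coefficient of variation between the MS rats was 1.83%, below the 3.84% that counting error alone gives. The means were 49.8 ± 7.23 CPM in Control, 40.8 ± 0.749 CPM in MS and 39.5 ± 6.03 CPM in MS+EA (SD, n = 3).

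The log2 fold change of Gpr17 was -0.29 in MS against Control (95% interval -0.55 to -0.03; adjusted p = 0.409, edgeR). It was -0.34 in MS+EA against Control (95% interval -0.60 to -0.08; adjusted p = 0.118, edgeR) and -0.05 in MS+EA against MS (95% interval -0.31 to 0.21; adjusted p = 0.905, edgeR), the last being -0.026 without B4. Both separated groups were thus at a lower mean than the same Control rats, without passing the adjusted threshold. When rats were omitted one at a time, the value ranged from -0.37 to -0.16 in MS against Control and from -0.46 to -0.21 in MS+EA against Control. Both ranges stayed below 0 and both were nearest to 0 without A1, the Control rat with the highest Gpr17. The adjusted p in MS+EA against Control was 0.0463 by edgeR without C3, at a fold change under 1.5, and lay between 0.0463 and 0.399 over the 9 omissions. In MS against Control it lay between 0.306 and 0.733. The unadjusted p by edgeR was no longer under 0.05 without A1, B3 or B6 in MS against Control. In MS+EA against Control this was so without A1 or C10.

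Between MS and Control rats 1 of the 6 members, Gpr17, did not overlap, and over all tested genes 17.6% did not overlap. No member was free of overlap between MS+EA and MS rats (17.9% of all genes) or between MS+EA and Control rats (25.9% of all genes). The count of members was thus near or below the share over all genes in each comparison. The median log2 fold change over the members was -0.15 in MS against Control, -0.08 in MS+EA against MS and -0.11 in MS+EA against Control, and the medians over all tested genes were -0.00, 0.00 and 0.01. With a rat left out the members' medians ranged from -0.21 (without B3) to -0.087 (without B6), from -0.18 (without C3) to 0.061 (without C10) and from -0.21 (without C3) to -0.030 (without C10), and the second was 0.028 without B4. In each comparison 2 members had a higher and 4 a lower mean. Of the 18 intervals of the members, 14 lay wholly inside a 1.5-fold change in either direction (0.58 on the log2 scale), and the exceptions were Sox10 in MS against Control and in MS+EA against MS, and Olig1 and Gpr17 in MS+EA against Control.

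**Figure D2:**
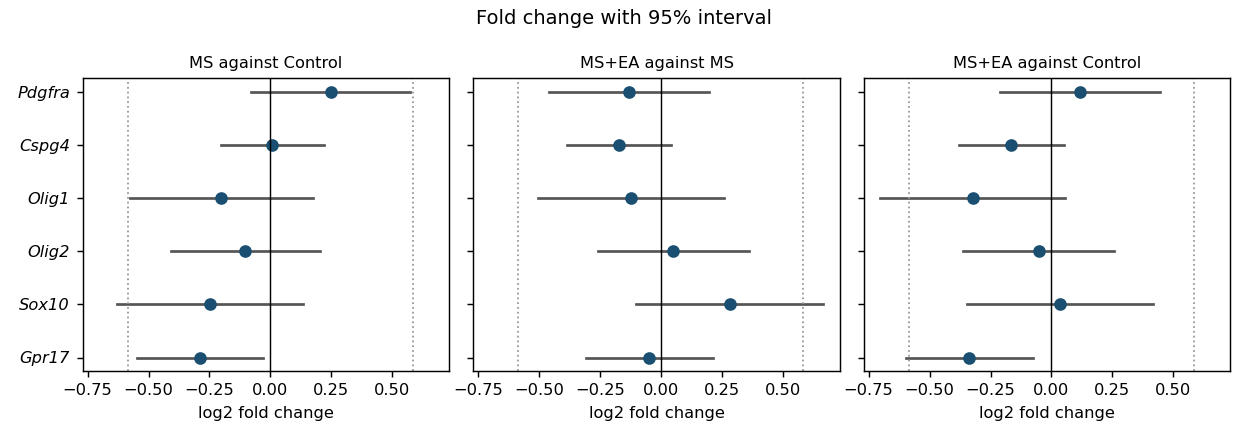
Log2 fold change of the 6 members (x axis) in the 3 comparisons, with points for the edgeR estimates, bars for 95% intervals and dotted lines at a 1.5-fold change in either direction. Only the intervals of Gpr17 in the 2 comparisons with Control leave out 0, with upper ends of -0.03 and -0.08.

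The sequences before the starts of Gpr17 and of the surface genes Pdgfra and Cspg4 are shown because Gpr17 stood lower against these genes in MS than in Control rats. They are the 250 bases upstream of the RefSeq start in the assembly GRCr8, a later build than the Rnor_6.0 of the counts. The table of promoters matched 4 of the 6 members. Capitals mark E-boxes, CANNTG, the kind of site that basic helix-loop-helix factors such as Olig1 and Olig2 bind, and the same matches are found on either strand.
Gpr17 promoter, chr18:23857382-23857631, strand -: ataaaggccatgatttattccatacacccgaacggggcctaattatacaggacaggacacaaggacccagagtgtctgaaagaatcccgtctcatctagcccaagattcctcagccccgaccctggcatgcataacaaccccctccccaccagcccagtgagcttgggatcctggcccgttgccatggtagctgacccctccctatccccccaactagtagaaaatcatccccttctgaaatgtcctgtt
Pdgfra promoter, chr14:33408517-33408766, strand -: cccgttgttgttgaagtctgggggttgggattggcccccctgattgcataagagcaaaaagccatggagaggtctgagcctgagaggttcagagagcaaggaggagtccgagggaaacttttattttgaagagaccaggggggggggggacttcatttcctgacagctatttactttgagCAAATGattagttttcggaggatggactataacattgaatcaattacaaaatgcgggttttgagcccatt
Cspg4 promoter, chr8:66160692-66160941, strand +: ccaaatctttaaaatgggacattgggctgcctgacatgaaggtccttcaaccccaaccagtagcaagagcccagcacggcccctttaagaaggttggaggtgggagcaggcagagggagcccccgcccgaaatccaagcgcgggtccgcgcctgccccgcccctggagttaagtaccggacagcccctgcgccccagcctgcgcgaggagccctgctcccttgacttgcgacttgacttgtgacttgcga

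The Pdgfra sequence held 1 E-box, starting 70 bases before the start of the gene, and the Gpr17, Cspg4 and Olig2 sequences held 0. Over all 33469 promoters of the same length 65.5% held at least 1. The SOX motif ACAAAG, on either strand and not overlapping the E-box, was in 0 of the 4 sequences and in 16.3% of all promoters. The content of G and C was 53.2% for Gpr17, 47.2% for Pdgfra and 62.0% for Cspg4. In GRCr8 the Gpr17 gene lies within the span of Lims2, and since no strand setting of the counting is given in the sources used here, reads of the overlap cannot be assigned with certainty. The Lims2 row held 9 to 30 counts per rat, against 477 to 1084 for Gpr17.

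The members were also set against each other within each rat, which cancels the scaling of the libraries, and this was chosen after their values had been seen. The ratio of Gpr17 to Pdgfra was 0.654, 0.598 and 0.523 in Control rats, 0.472, 0.327 and 0.466 in MS rats and 0.461, 0.468 and 0.379 in MS+EA rats. Every rat of the separated groups was below every Control rat. The fibroblast sum split the same rats, at 63.3 CPM or more in the separated groups and 54.3 CPM or less in Control. The part of fibroblast RNA in this ratio, through Pdgfra, was not tested. The ratio of Gpr17 to Cspg4 was 0.883, 0.879 and 0.710 in Control, 0.666, 0.652 and 0.694 in MS and 0.756, 0.688 and 0.743 in MS+EA rats, so that the MS rats were below the Control rats and the MS+EA rats overlapped both.

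The ratio of Sox10 to Olig1 was 0.632, 0.696 and 0.588 in Control, 0.643, 0.559 and 0.649 in MS and 0.794, 0.879 and 0.808 in MS+EA rats. All 3 MS+EA rats were above the other 6, with group means of 0.639 ± 0.0546, 0.617 ± 0.0501 and 0.827 ± 0.0455 (SD, n = 3). Of all 15 ratios between members, 2 did not overlap between MS and Control rats, 1 between MS+EA and MS rats and 5 between MS+EA and Control rats. The 5 were Gpr17, Olig1 and Cspg4 to Pdgfra and Gpr17 to Sox10, all lower in MS+EA, and Sox10 to Olig1. Over the ratios of all pairs of tested genes the share without overlap was 16.5% in MS against Control, 15.8% in MS+EA against MS and 22.4% in MS+EA against Control, so the members' counts of such ratios were near or below that share in the first 2 comparisons and above it in the third, where 5 ratios shared only 5 genes. A two-sided exact permutation test of 3 against 3 cannot give a p below 0.10, and no test was made of ratios chosen in this way.

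**Figure D3:**
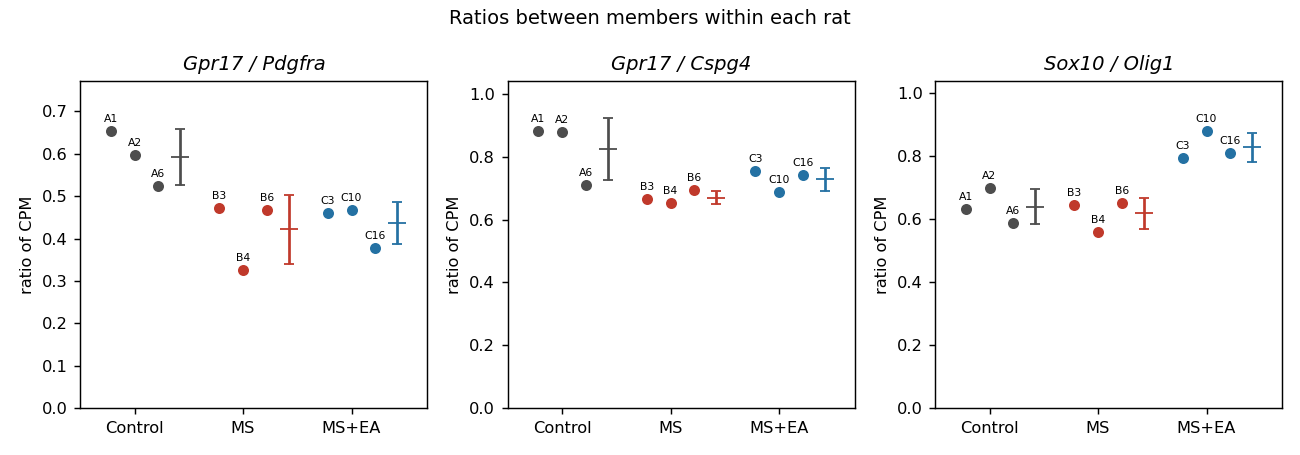
Ratio of the CPM of 2 members within each rat (y axis, from 0) by group, with 1 point per rat and the mean ± SD (n = 3) beside each group. Gpr17 to Pdgfra is at 0.523 or more in Control and at 0.472 or less in the MS and MS+EA rats, and Sox10 to Olig1 is at 0.794 or more in the MS+EA rats and at 0.696 or less elsewhere.

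Whether the members vary together between rats was examined over the 15 pairs of log2 CPM in the 9 rats. With exact two-sided permutation tests and Benjamini-Hochberg adjustment over the 15 pairs, 0 pairs passed an adjusted p under 0.05. The permutations were over all 9 rats and ignored group. Olig1 and Gpr17 were the closest pair, with r = 0.85 (exact permutation p = 0.00633, adjusted p = 0.0949) and Spearman's rho = 0.77 (exact permutation p = 0.0214, adjusted p = 0.160). Without A1 and C10, the rats farthest from the median of Olig1, r was 0.68, and on deviations from the group means it was 0.83. Olig1 and Sox10 had r = 0.70 (exact permutation p = 0.0296, adjusted p = 0.168), rho = 0.77 (exact permutation p = 0.0214, adjusted p = 0.160), r = 0.71 without A1 and C10, and r = 0.93 on deviations from the group means. On deviations from the group means r was also 0.75 for Sox10 and Gpr17 and 0.74 for Cspg4 and Gpr17. Pdgfra had r between -0.08 and 0.44 with the 5 other members, and differences between these r values were not tested.

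The 6 members were then set against the mean log2 CPM of 9 lists of cell type genes, 54 relations in all, a comparison that was added after the values had been seen. With Benjamini-Hochberg adjustment over the 54 exact permutation tests, 3 relations passed by Pearson's r and each involved a different member. The permutations ignored group, so differences between groups shared by a member and a list enter these p-values. The r values on deviations from the group means were not tested. Sox10 varied with 19 genes of myelinating oligodendrocytes (r = 0.97, exact permutation p = 0.000215, adjusted p = 0.0116; rho = 0.93, exact permutation p = 0.00075, adjusted p = 0.0202). Without C10 and C3, the 2 rats farthest from the median of the list, r was 0.94, and on deviations from the group means it was 0.97. The 19 genes summed to 2646 to 4052 CPM in Control, 2352 to 3612 CPM in MS and 2555 to 5188 CPM in MS+EA rats. C3 was highest and B4 lowest in both this sum and Sox10. In the mean log2 CPM of the list C3 was highest too, but C10 was lowest, at 5.515 against 5.557 in B4.

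Pdgfra went with 7 fibroblast genes (r = 0.91, exact permutation p = 0.00154, adjusted p = 0.0277; rho = 0.77, exact permutation p = 0.0214, adjusted p = 0.116). Without B4 and C16, r was 0.69, so the strength of the relation rests in part on those rats, and on deviations from the group means it was 0.96. The fibroblast sum was 44.1 to 54.3 CPM in Control, 63.3 to 478 CPM in MS and 64.1 to 257 CPM in MS+EA rats, with none of the 7 genes at 0 in any rat. The correlation of Pdgfra with 12 pericyte and mural cell genes was 0.84 (exact permutation p = 0.00557, adjusted p = 0.0542) and fell to 0.48 without B4 and C3. With the endothelial list r was 0.79 (exact permutation p = 0.00703, adjusted p = 0.0542), and 0.58 without A2 and B4. The highest rho of Pdgfra was with the astrocyte list (0.85, exact permutation p = 0.00607, adjusted p = 0.0893), where r was 0.73. The part of RNA from any of these cells in the Pdgfra levels was not tested.

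Gpr17 went with 8 microglia genes (r = 0.87, exact permutation p = 0.00109, adjusted p = 0.0277; rho = 0.83, exact permutation p = 0.00827, adjusted p = 0.0893). Without C10 and C16, the rats lowest in the list, r was 0.76, and on deviations from the group means it was 0.81. The microglia sum was 256 to 286 CPM in Control, 239 to 271 CPM in MS and 207 to 273 CPM in MS+EA rats, and its part in the Gpr17 levels was not tested. Cspg4 had r = 0.84 with the same list (exact permutation p = 0.00606, adjusted p = 0.0542; rho = 0.93, adjusted p = 0.0202), which was 0.51 without C10 and C16. With the 12 mural cell genes Cspg4 had r = 0.28 (exact permutation p = 0.478, adjusted p = 0.768), and 0.60 on deviations from the group means. With the endothelial list Cspg4 had r = 0.51 (exact permutation p = 0.163, adjusted p = 0.398), and 0.885 on such deviations, which were not tested.

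Olig1 had its highest r, 0.79, with the 13 tested genes of another precursor-enriched list (exact permutation p = 0.00695, adjusted p = 0.0542; rho = 0.82, adjusted p = 0.0969), and r was 0.87 without B4 and C3. The same list had r = 0.79 with Sox10 and 0.74 with Gpr17, but -0.24 with Pdgfra and -0.13 with Olig2. The highest r of Olig2 with any of the 9 lists was 0.55.

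**Figure D4:**
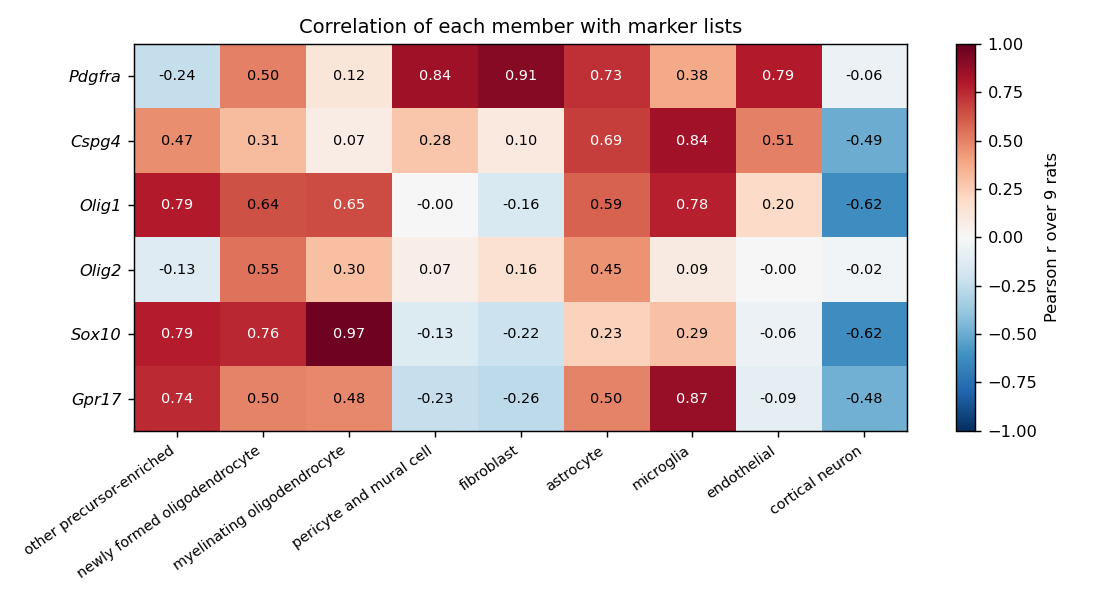
Pearson's r over the 9 rats between the log2 CPM of each member (rows) and the mean log2 CPM of each of 9 cell type gene lists (columns), printed in each cell and coloured from -1 to 1. Sox10 is highest with the myelinating oligodendrocyte list (0.97), Pdgfra with the fibroblast list (0.91) and Gpr17 with the microglia list (0.87).

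**Figure D5:**
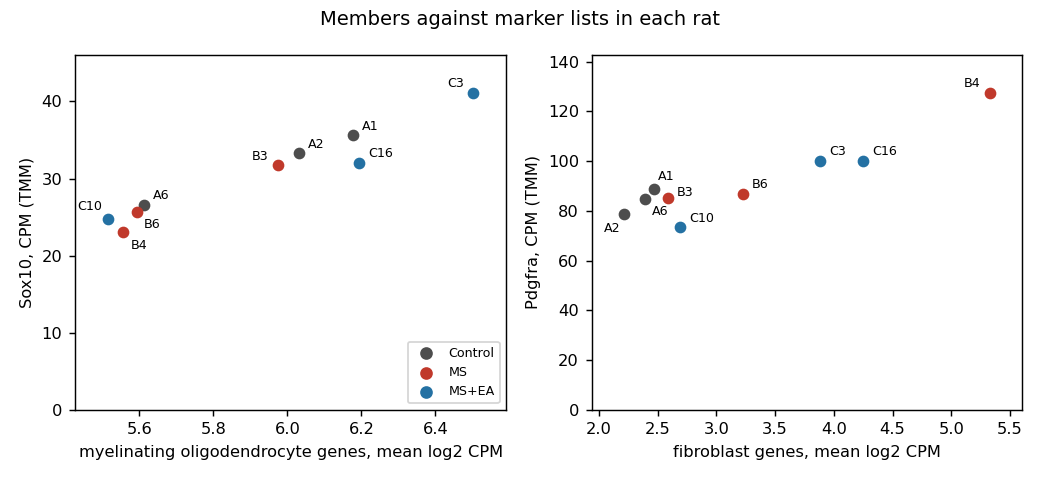
CPM of Sox10 against the mean log2 CPM of 19 myelinating oligodendrocyte genes, and of Pdgfra against that of 7 fibroblast genes, with 1 point per rat coloured by group. Rat C3 is highest for Sox10 at 41.1 CPM, and rat B4 is highest for Pdgfra at 128 CPM and farthest right in fibroblast genes.

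Among 11637 tested genes with a mean of at least 5 CPM, the genes most like each member over the 9 rats were found by Pearson's r of log2 CPM, as a description. The 3 genes nearest to Sox10 were Fa2h (0.98), Cnp (0.97) and Mbp (0.97), which encode a fatty acid hydroxylase of myelin lipids and 2 proteins of myelin. Nearest to Pdgfra were Prelp (0.97), a matrix protein of connective tissue, Tln1 (0.97), the integrin adaptor talin, and LOC100363275 (0.97). Prelp was at 43.3 CPM in B4 and at 17.0 to 32.8 CPM in the other rats, the same rat that was highest in Pdgfra. Nearest to Gpr17 were Kcnh1 (0.95), Wnt7b (0.95) and Hdac5 (0.95), to Olig1 Max (0.98), Gna12 (0.97) and Fam149b1 (0.97), to Cspg4 Dlgap3 (0.96), Furin (0.96) and Mlycd (0.95), and to Olig2 Phactr4 (0.92), Ncoa3 (0.90) and Phlda3 (0.90).

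The members were seldom near each other in that order. Olig1 ranked 101 among the genes most like Gpr17, and Gpr17 ranked 132 among those most like Olig1. Olig1 ranked 268 for Sox10, and every other rank of one member for another was 705 or lower in the order. For the mean of the 6 standardised members the nearest genes were Crlf2, Psat1, Cad, Slc6a8, Zfyve21, Homer3, Zc3hc1, Max, Mmp15 and Nacc2, with r of 0.98 to 0.95. These correlations share the libraries and their depth.

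The other genes of the lineage and its signals were taken from lists, and 0 of their genes were called in any comparison. Of 14 other precursor-enriched genes 13 were tested, and 4 were higher and 9 lower in MS than in Control rats (median log2 fold change -0.08). C1ql1 (-0.43) and Emid1 (-0.35) passed an unadjusted p under 0.05 in edgeR, as did 10.6% of all tested genes. Neither passed after adjustment (adjusted p = 0.466 and 0.302, edgeR). In both, the MS rats were below all Control rats, while Xylt1 (0.38) went the other way, with MS rats above all Control rats. Over all tested genes 17.6% did not overlap between these groups, in either direction. Between MS+EA and MS rats 8 were higher and 5 lower, with Tnr, a matrix protein of precursors and nets around neurons, at -0.19 (adjusted p = 0.362, edgeR). Against Control, 4 were higher and 9 lower in MS+EA, with Cacng4 at -0.24 (adjusted p = 0.219, edgeR).

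Of 12 genes of newly formed oligodendrocytes, 5 were higher and 7 lower in MS than in Control rats. In MS+EA rats 10 were higher and 2 lower than in MS rats, and 8 higher and 4 lower than in Control rats. Bcas1, a marker of early myelinating cells, had the lowest p of them in MS+EA against MS (log2 fold change 0.64, adjusted p = 0.325, edgeR), at 174, 95.02 and 222 CPM in MS+EA and 135, 84.7 and 93.7 CPM in MS rats. Mycl was lower in all MS and all MS+EA rats than in any Control rat (-0.37 and -0.30, adjusted p = 0.314 and 0.201, edgeR). It alone of the 12 genes did not overlap in these comparisons, where 17.6% and 25.9% of all tested genes did not. Of the 19 myelinating genes 18 were at a lower mean in MS than in Control rats (median -0.24, with 0 under an unadjusted p of 0.05 in edgeR), and 19 were higher in MS+EA than in MS rats (median 0.46), where Mog (0.58), Ermn (0.55), Ugt8 (0.47) and Tf (0.65) passed the unadjusted threshold (12.4% of all tested genes) and 0 the adjusted one. None of the 19 was free of overlap between MS+EA and MS rats, and the sum in C10, 2555 CPM, lay within the MS range while that in C3 was 5188 CPM. Between MS+EA and Control rats 16 were higher and 3 lower, with Ermn (0.63) at an unadjusted p under 0.05 in edgeR. Sox10 had the same signs, -0.25 and 0.28, whereas Gpr17 was at -0.29 and -0.05.

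Of the PDGF ligands and Pdgfrb, the partner receptor, 5 genes in all, 1 passed an unadjusted p under 0.05 in edgeR in any comparison. This was in MS+EA against MS, where 12.4% of all tested genes passed. Pdgfa, which encodes the main ligand of Pdgfra in the brain, was at 36.7, 32.6 and 40.3 CPM in Control, 35.2, 36.9 and 37.8 CPM in MS and 34.0, 31.7 and 28.6 CPM in MS+EA rats. Every MS+EA rat was below every MS rat, with a log2 fold change of -0.22 (adjusted p = 0.392, edgeR). Of the 5 genes, 1 was lower and 1 higher without overlap between these groups, and 17.9% of all tested genes did not overlap. Of 23 transcriptional regulators of the lineage 1, 1 and 3 passed the unadjusted threshold. The comparisons were MS against Control, MS+EA against MS and MS+EA against Control, with shares over all tested genes of 10.6%, 12.4% and 22.5%. Sox8, the close relative of Sox10, was below the Control rats in all MS rats (-0.23, adjusted p = 0.409, edgeR) and in all MS+EA rats (-0.31, adjusted p = 0.0713, edgeR). Of the 23 regulators, 3 were lower and 0 higher without overlap in MS against Control, and 2 lower and 1 higher in MS+EA against Control. Over all tested genes 17.6% and 25.9% did not overlap. Hes5, a Notch target that holds back differentiation, was lower in MS+EA than in MS rats (-0.86, adjusted p = 0.322, edgeR), and in MS+EA against Control Id4 was at 0.40 and Yy1 at -0.40 (adjusted p = 0.0566 and 0.162, edgeR).

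Of 16 measured genes of signals that act on precursor division or maturation, 1, 4 and 4 passed the unadjusted threshold. The order of comparisons was the same, with shares over all tested genes of 10.6%, 12.4% and 22.5%. Lingo1, a membrane protein that restrains the maturation of precursors and is abundant in neurons, was at 426 to 448 CPM in MS+EA rats, 476 to 544 CPM in MS rats and 520 to 581 CPM in Control rats. Its log2 fold change of -0.36 in MS+EA against Control had an adjusted p of 0.0174 by edgeR but was below the 1.5-fold threshold, and in MS+EA against MS it was -0.24 (adjusted p = 0.243, edgeR). Fgfr2 was higher in every MS+EA rat than in any other rat (0.28 against MS and 0.22 against Control, adjusted p = 0.205 and 0.0836, edgeR). Lpar1 (0.49) and Nog (-0.45) were the others at an unadjusted p under 0.05 in MS+EA against MS, Lpar1 (0.66) and Jag1 (0.33) in MS+EA against Control, and Fgf2 (0.41) in MS against Control, all by edgeR. Of the 16 genes, 1 was higher and 2 lower without overlap in MS+EA against MS, and 2 higher and 1 lower in MS+EA against Control. Over all tested genes 17.9% and 25.9% did not overlap. Of 10 cell division genes 8 were tested, and Top2a alone passed the unadjusted threshold, in MS+EA against MS (1.32, adjusted p = 0.367, edgeR), at 0.361 to 2.30 CPM in these 6 rats. The whole list summed to 6.46 to 11.5 CPM in the 9 rats.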

How the data were processed

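Per the labels and the methods of the study, RIN above 8.0 was required, libraries were made from rRNA-depleted total RNA for a HiSeq X sequencer, and reads were mapped to Rnor_6.0 with HISAT2 2.0.4. The authors deposited whole-number counts per gene without normalization. The counting program and its strand setting are not given in the sources used here.

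Counts were scaled by TMM and filtered with filterByExpr (minimum count 10), and all 9 rats entered 1 edgeR 4.0.16 model (R 4.3.3) of group means. Comparisons used its quasi-likelihood F test with Benjamini-Hochberg adjustment over 16837 genes. The thresholds of 0.05 and 1.5-fold follow the study, which used EBSeq, a tool not used here. Intervals are from the same fit. Likeness and correlations used log2 CPM (prior count 2) and 362880 exact permutations. The fit was tested on simulated data.

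The members and lists were chosen with earlier results of these data known. Named list genes are those at an unadjusted p under 0.05 in edgeR, the 3 with the largest change per list and comparison, and the genes of highest r. Ugt8, and Lingo1 and Fgfr2 in 1 comparison each, were added after their values were seen. Alternatives were DESeq2 1.42.0, limma-trend (limma 3.58.1), RLE factors, total counts, filters of 1 count over all rats or 10 in every rat, a fit of 6 rats, no fold threshold and the omission of each rat.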

Additional observations from a re-analysis of the deposited data

How the results depend on the processing

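Over the 3 comparisons the number of members called was 0 under every alternative, and of 288 log2 fold changes of members under alternatives 273 kept their direction and their side of the joint threshold of adjusted p and fold change and 15 reversed, none of them past it. Gpr17 in MS+EA against Control without C3 passed the adjusted p alone (0.0463, edgeR, against 0.118 with all rats). Cspg4 in MS against Control reversed with total counts (-0.0057) and with genes of at least 1 count (-0.0011). The other reversals came from leaving out a rat. In MS against Control Cspg4 then ranged from -0.079 (without A2) to 0.070 (without A1) and was also below 0 without B4. In MS+EA against MS Pdgfra ranged from -0.23 (without B3) to 0.090 (without B4), Olig1 from -0.35 (without C3) to 0.079 (without C10), Olig2 from -0.12 (without C16) to 0.15 (without C10) and Gpr17 from -0.17 (without C3) to 0.044 (without C10). In MS+EA against Control Olig2 ranged from -0.22 (without C16) to 0.051 (without C10) and Sox10 from -0.16 (without C3) to 0.20 (without C10). The median of the members in MS+EA against MS ranged from -0.18 without C3 to 0.061 without C10. The count of correlated pairs was 1 without B3 and 0 otherwise.

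Over all genes the calls in MS against Control (4) were 70 with DESeq2, 207 with at least 1 count, 11 in the fit of 6 rats, and 2 (without A1 or A2) to 22 (without B3) with a rat left out. For MS+EA against MS (3) they were 6 with DESeq2, 0 with at least 10 counts in every rat (where edgeR had 1951 at an unadjusted p under 0.05), 72 with at least 1 count, 1 in the fit of 6 rats, and 1 to 4 with a rat left out. For MS+EA against Control (230) they were 469 with at least 1 count, 910 without the fold threshold, and 71 (without A1) to 304 (without B4) with a rat left out, 121 without C10. The cause of these shifts was not tested. DESeq2 gave no adjusted p for Olig2 and Sox10 in MS+EA against MS. No paired analysis was possible because the 3 groups hold separate animals and share fewer than 2 rat numbers.

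The members' counts of 206 to 2039 gave counting errors below the spread between rats, except for Gpr17 in MS rats (3.84% against 1.83%). For Olig2 counting error was close to that spread, at 5.91% against 7.02% in Control and 6.21% against 8.52% in MS rats, so depth also limits this gene. Intervals cover these rats only.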
